A study of Macaca mulatta with 2 samples.

Results

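Apoptosis is driven by a small set of regulators and executioners, and 45 of their genes were followed here in the prefrontal cortex of infant rhesus macaques with and without repeated sevoflurane anesthesia. The 45 genes were chosen by name, as members of the BCL2 family, the caspases, the death receptors with their adaptors, the IAP proteins, the apoptosome and the p53 axis, and all 45 were listed among the 33618 genes of the count table. RNA sequencing covered 1 control library (PFC CON 1) and 1 sevoflurane library (PFC SEV 1), each from the prefrontal cortex of an animal with a labelled age of 28 days. Sevoflurane was inhaled at about 2.5 to 3% for 4 h on about postnatal days 7, 14 and 28, and the study's methods place the later exposures on other days and the collection of tissue immediately after the last one. How the control animal was handled before its tissue was taken is not given in the sources used here. The design lists 3 animals per group, and the other animals were not analysed here. There were therefore no replicates, and every difference below compares 2 libraries and not the conditions.

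In the mitochondrial pathway of apoptosis, BH3-only proteins sense stress and bind the prosurvival proteins of the BCL2 family, which otherwise hold BAX and BAK1 in check. Once freed, BAX and BAK1 open the outer mitochondrial membrane, cytochrome c joins APAF1 in the apoptosome, and CASP9 starts the caspase cascade. Death receptors such as FAS reach the same cascade through FADD and CASP8, while IAP proteins restrain the caspases. In the immature cortex this machinery removes surplus neurons, and anesthetics given at that age have been studied for their ability to trigger it. Most caspases and several BCL2 proteins are switched on by cleavage, binding or release, which transcript levels do not show.

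Reads assigned to genes numbered 16960880 (control) and 9839105 (sevoflurane). The levels below are CPM, reads scaled to a common library size with the TMM correction, and they are not divided by transcript length, so they compare 1 gene between libraries and not genes with each other. Log2 ratios of sevoflurane over control have 2 prior reads added, and each 95% interval is the exact Clopper-Pearson interval of the sevoflurane share of a gene's reads. These intervals cover counting error only. The neuron markers SLC17A7 (998 CPM in the control, 914 CPM after sevoflurane) and GAD1 (248 and 211 CPM) were abundant in both libraries. The 7 Y-linked genes looked at held 3 control reads and 4308 sevoflurane reads. By the study's methods the control group was female and the anesthesia group of mixed sex, so that exposure, animal and sex cannot be told apart.

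About as many apoptosis genes lay within counting error of equal expression as beyond it. Of the 45 genes, 41 reached 1 CPM in either library. Within counting error were 21 of the 41, beside 7853 of all 18050 tested genes, and 5 were higher and 15 lower beyond it. The BH3-only genes BBC3, BCL2L11 and BID and the death receptor gene FAS were higher in the sevoflurane library by at least 1.5-fold. The pore-forming gene BOK, the prosurvival gene BCL2, the BH3-only gene BMF, the IAP gene BIRC3, the receptor gene TNFRSF21 and the kinase gene RIPK3 were lower by at least 1.5-fold, each with an interval that excluded equal expression.

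At 2-fold, 2 of the 41 genes were higher (BBC3 and FAS) and 2 were lower (BOK and RIPK3), or 4.88% in each direction. RIPK3 passed the filter of 1 CPM through the control library alone, where it was high, so its place in this count follows in part from the filter. Over the 18050 tested genes of the table, 7.56% were higher and 5.47% lower by the same rule. At 1.5-fold, 4 apoptosis genes (9.76%) were higher and 6 (14.6%) lower, beside 14.4% and 11.9% of all tested genes. With the interval alone, 5 (12.2%) were higher and 15 (36.6%) lower, beside 28.4% and 28.1%. The counts of genes beyond counting error in the classes and lists below have the same 28.4% and 28.1% as their background. Past 2-fold or 1.5-fold, each share rests on 2 to 6 genes and is not read as a difference from the whole table in either direction. The median log2 ratio of the 41 genes was -0.14, and that of all tested genes -0.0048. Of the 41 values, 30 were below 0, as were 50.3% of all tested values.

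**Figure D1:**
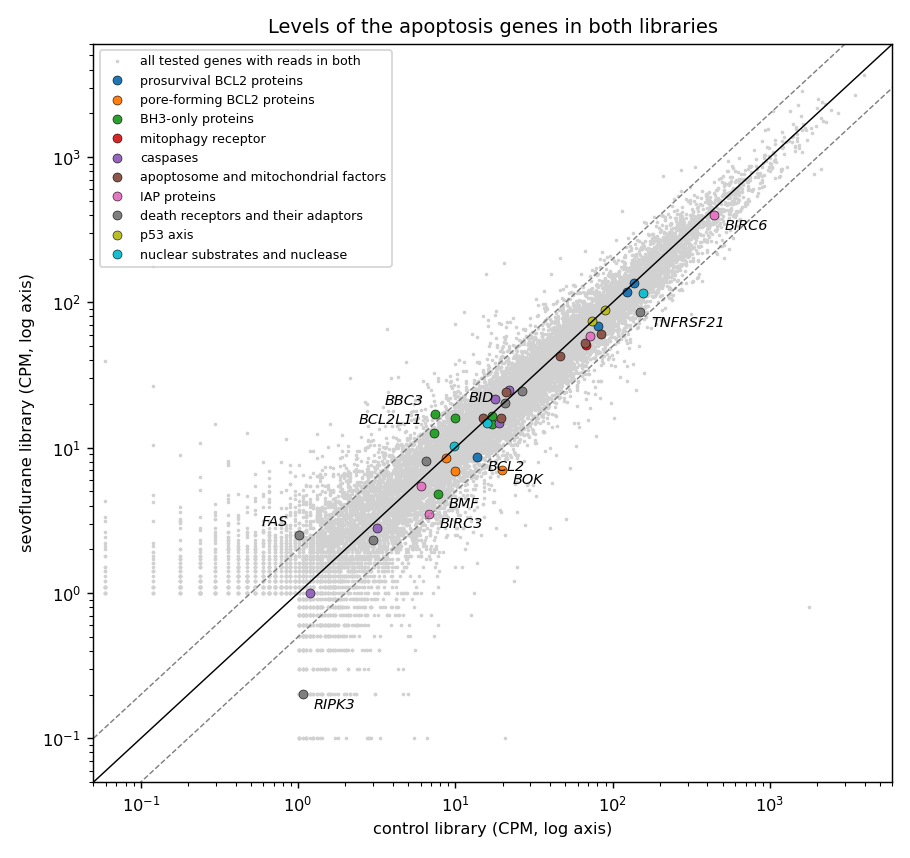
CPM in the control library (x axis, log scale) against CPM in the sevoflurane library (y axis, log scale) for the 41 tested apoptosis genes, coloured by class, over all tested genes with reads in both libraries (grey). The solid line marks equal levels and the dashed lines 2-fold differences, and 4 apoptosis genes lie past a dashed line: BBC3 and FAS above, BOK and RIPK3 below.

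The BH3-only genes moved apart. BBC3 encodes PUMA, a BH3-only protein that p53 and other stress pathways induce and that binds every prosurvival BCL2 protein. It had 124 control reads and 169 sevoflurane reads, although the sevoflurane library was the shallower one. Its level was 7.38 CPM in the control and 17.0 CPM after sevoflurane, which is 231% of the control level (95% interval 182% to 293%, log2 ratio 1.19). The ratio exceeded that of 94.0% of all tested genes. BCL2L11 encodes BIM, which neurons induce on loss of trophic support. It had 122 control and 126 sevoflurane reads, or 7.26 and 12.7 CPM (log2 ratio 0.79, 95% interval 0.43 to 1.18). BID, which links death receptors to mitochondria once it is cleaved, had 166 and 158 reads, or 9.88 and 15.9 CPM (log2 ratio 0.68, 95% interval 0.36 to 1.01). All 3 were higher in the sevoflurane library.

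The remaining BH3-only genes did not share this direction. BMF, whose protein is held on the cytoskeleton until it is released, was lower in the sevoflurane library, with 130 control and 48 sevoflurane reads (7.74 and 4.83 CPM, log2 ratio -0.66, 95% interval -1.19 to -0.19). HRK, a BH3-only gene of the nervous system that responds to withdrawal of growth factors through JNK, had 289 and 163 reads, or 17.2 and 16.4 CPM. Its log2 ratio of -0.07 had an interval of -0.35 to 0.21, which includes equality. BAD, which growth factor signals keep inactive by phosphorylation, had 287 and 144 reads and a log2 ratio of -0.23 (95% interval -0.54 to 0.06). Of the 8 BH3-only genes, 3 were therefore higher, 1 was lower, 2 were within counting error and 2 were not tested. BNIP3L, a relative of this class that mainly tags mitochondria for removal, was lower, at 68.0 CPM (control) and 50.7 CPM (sevoflurane) (1143 and 503 reads, log2 ratio -0.42, 95% interval -0.58 to -0.27).

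Among the pore-forming genes, BOK had the lowest ratio. BOK is a relative of BAX and BAK1 whose protein is thought to be controlled mainly by its turnover. It had 333 control reads and 70 sevoflurane reads. The level was 19.8 CPM in the control and 7.05 CPM after sevoflurane, or 35.6% of the control level (95% interval 27.1% to 46.1%, log2 ratio -1.47), and BOK was the 1 apoptosis gene whose whole interval lay past 2-fold. BAK1 was lower as well, with 167 and 69 reads (9.94 and 6.95 CPM, log2 ratio -0.51, 95% interval -0.94 to -0.10). BAX, the pore-former of most developing neurons, had 147 and 84 reads and nearly the same level in both libraries, 8.75 and 8.46 CPM (log2 ratio -0.05, 95% interval -0.45 to 0.35). With these read numbers, the BAX interval ran from 73.1% to 127% of the control level.

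The prosurvival genes were equal or lower in the sevoflurane library. BCL2, the founding member of the family, was the lowest of them, with 231 control and 86 sevoflurane reads (13.7 and 8.66 CPM, log2 ratio -0.66, 95% interval -1.04 to -0.30). BCL2L1, which encodes BCL-XL, the main guardian of mature neurons, differed by less, with 1363 and 684 reads, or 81.1 and 68.9 CPM (84.9% of the control level, 95% interval 77.4% to 93.2%). MCL1, a short-lived guardian needed by neural progenitors, had 2075 and 1171 reads and a log2 ratio of -0.07 (95% interval -0.17 to 0.04). BCL2L2, which encodes BCL-W and is prominent in axons, had 2309 and 1345 reads and a log2 ratio of -0.02 (95% interval -0.12 to 0.08). For MCL1 and BCL2L2 the reads were numerous enough that the intervals left no room for a difference of 1.5-fold between these libraries.

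**Figure D2:**
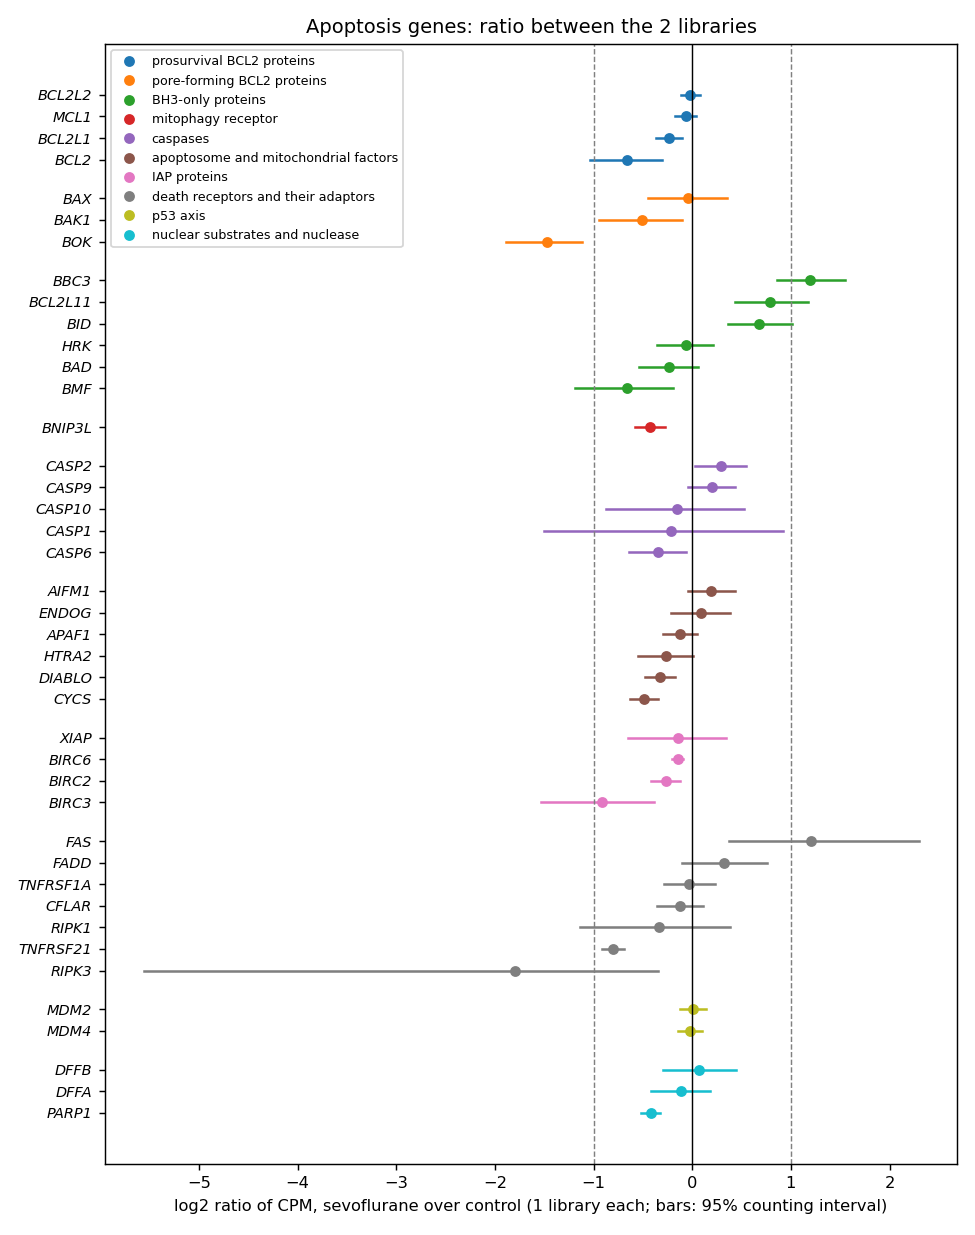
Log2 ratio of CPM, sevoflurane over control, for the 41 tested apoptosis genes, grouped and coloured by class (points), with 95% counting intervals (bars). The solid line marks equal expression and the dashed lines 2-fold. BBC3, BCL2L11 and BID stand to the right among the BH3-only genes, BOK lies left of the lower dashed line with its whole interval, and MDM2 and MDM4 sit at 0 with short bars.

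Because the balance between opposing partner proteins is what sets the mitochondrial step, the transcript reads of 12 partner pairs were also divided by each other within each library. Such a ratio does not depend on how the libraries were scaled, and the sevoflurane ratio over the control ratio has an exact conditional 95% interval for counting error. The reads are not protein amounts and are not divided by transcript length. Only the comparison of a pair between the libraries is therefore read. For 2 pairs no ratio is given, because PMAIP1 and CASP8 were at or under 3 reads in both libraries. Of the other 10, 3 were higher in the sevoflurane library, 1 was lower and 6 were within counting error.

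The ratio of BBC3 to BCL2 reads was 0.537 for the control and 1.97 for sevoflurane, which is 3.66 times as high (95% interval 2.57 to 5.22). That of BCL2L11 to BCL2 was 0.528 and 1.47, or 2.77 times as high (95% interval 1.92 to 4.003). BAX to BCL2, the pair most often used as an index of apoptotic readiness, was 0.636 and 0.977, or 1.54 times as high (95% interval 1.05 to 2.25). In these 3 pairs the denominator was the same gene, and the lower BCL2 level enters all of them. BCL2 held 231 of the 5979 control reads of the prosurvival genes, and had the lowest ratio of those tested. BBC3 and BCL2L11 were not paired with any other prosurvival gene. Set against BCL2L1 in place of BCL2, BAX gave 1.14 times the control ratio, with an interval of 0.847 to 1.52 that included equality. BAK1 to MCL1 was lower, at 0.732 times the control ratio (95% interval 0.540 to 0.985), and BAK1 to BCL2L1 was at 0.823 (95% interval 0.604 to 1.11). The intervals of BAX to BCL2 and of BAK1 to MCL1 lay close to equality, and when the deeper control library was thinned to equal depth they became 0.981 to 2.31 and 0.560 to 1.10. The remaining pairs of caspases, apoptosome and inhibitors differed by less than counting error. CASP9 to XIAP was at 1.27 times the control ratio (95% interval 0.865 to 1.87), DIABLO to XIAP at 0.880 (0.615 to 1.27), APAF1 to BCL2L1 at 1.08 (0.930 to 1.26) and MDM2 to MDM4 at 1.02 (0.899 to 1.15).

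Summed over the classes, pore-forming and BH3-only genes together held 1765 control and 1033 sevoflurane reads, against 5979 and 3289 reads of the prosurvival genes. This ratio was 1.06 times as high after sevoflurane (95% interval 0.973 to 1.16), within counting error. The sum hides opposite parts. BH3-only reads over prosurvival reads were 1.32 times as high (95% interval 1.19 to 1.46), and pore-forming reads over prosurvival reads were 0.627 times as high (0.533 to 0.735). A single gene carried much of each. Without BBC3 the first value was 1.17 (95% interval 1.05 to 1.31), and without BOK the second was 0.886 (0.722 to 1.08), within counting error. BNIP3L was not counted among the BH3-only genes in these sums. It held 1143 and 503 reads, beside 1118 and 810 of those genes, and it was lower, so the first value depends on leaving it out. A sum with BNIP3L was not made.

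**Figure D3:**
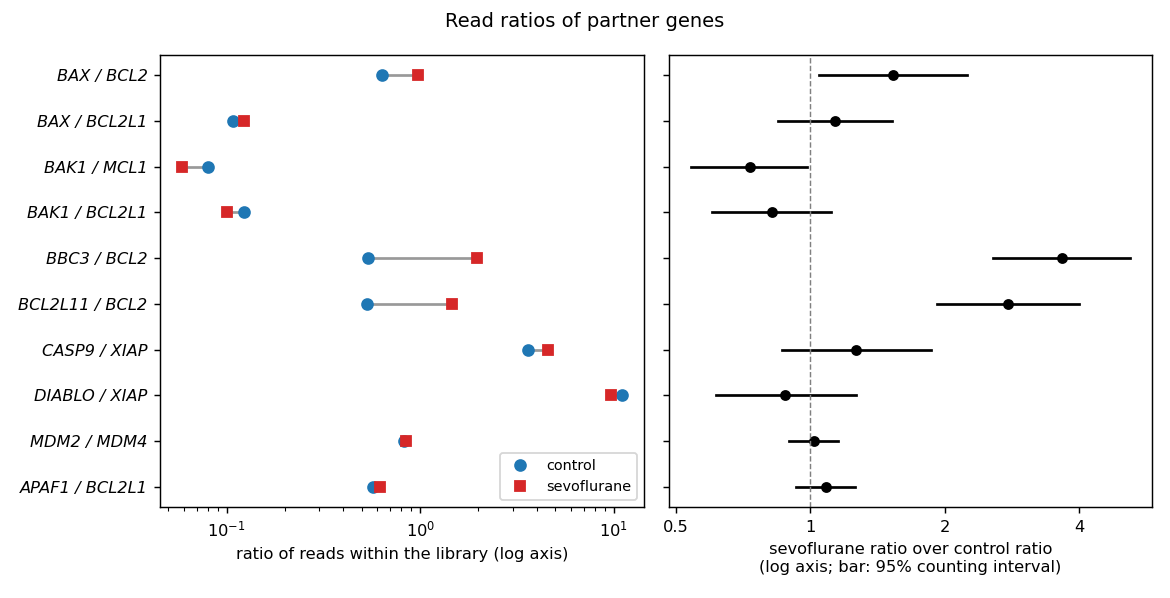
Read ratios of 10 partner pairs. The left panel gives the ratio within the control (circles) and the sevoflurane library (squares) on a log axis, and the right panel the sevoflurane ratio over the control ratio with its 95% counting interval, also on a log axis. BBC3 / BCL2 and BCL2L11 / BCL2 lie farthest to the right in the right panel, at 3.66 and 2.77, and MDM2 / MDM4 lies at 1.02.

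Downstream of the mitochondria, the factors that are released from the intermembrane space were equal or lower. CYCS, which encodes cytochrome c, had 1421 control and 599 sevoflurane reads (84.6 and 60.3 CPM, log2 ratio -0.49, 95% interval -0.63 to -0.35). CYCS has many processed copies in primate genomes, and how reads that match several copies were counted is not given in the sources used here. DIABLO, an antagonist of the IAP proteins, had 1116 and 525 reads and was at 79.6% of its control level (95% interval 71.6% to 88.4%). HTRA2, a mitochondrial protease that also binds IAP proteins, had 326 and 160 reads, and its log2 ratio of -0.27 just failed to exclude equality (95% interval -0.55 to 0.01). AIFM1 and ENDOG, which act on DNA in the nucleus without caspases, had log2 ratios of 0.19 (95% interval -0.05 to 0.44, 353 and 239 reads) and 0.08 (-0.21 to 0.38, 252 and 158 reads). APAF1, the scaffold of the apoptosome, had 782 and 425 reads and a log2 ratio of -0.12 (95% interval -0.29 to 0.05). Of these 6 genes, 2 were lower and 4 were within counting error, and none differed by 1.5-fold.

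Of the 45 genes, 6 encode caspases, and none of the 5 tested ones differed by 1.5-fold. CASP9, the initiator that the apoptosome activates, had 366 and 248 reads (21.8 and 24.97 CPM, log2 ratio 0.20, 95% interval -0.04 to 0.43). CASP2, an initiator linked to DNA damage and to neuronal death in development, had the highest ratio of the class, with 299 and 216 reads, or 17.8 and 21.8 CPM (log2 ratio 0.29, 95% interval 0.03 to 0.55). CASP6, an executioner also known from the pruning of axons, had the lowest, with 317 and 147 reads, or 18.9 and 14.8 CPM (log2 ratio -0.35, 95% interval -0.64 to -0.06). CASP10 had 53 and 28 reads and CASP1, which processes interleukins in inflammasomes, 20 and 10 reads. Their intervals, from -0.88 to 0.53 and from -1.50 to 0.92, were too wide to show a difference of 1.5-fold at this depth.

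All 4 IAP genes had log2 ratios below 0, as had 50.3% of all tested genes. Of the 4, 3 excluded equality, beside 28.1% of all tested genes that were lower by that rule. BIRC3, an inducible ligase of NF-kappaB signalling, had 114 control and 35 sevoflurane reads (6.78 and 3.52 CPM, log2 ratio -0.92, 95% interval -1.53 to -0.39). BIRC2, its constitutive relative, had 1198 and 587 reads and was at 82.9% of the control level (95% interval 74.99% to 91.6%). BIRC6, a giant ubiquitin-conjugating IAP protein, had 7420 and 3961 reads and was at 90.3% (86.9% to 93.9%), the narrowest interval of the 41 genes. XIAP, the inhibitor that binds active caspases most directly, had 101 and 54 reads and a log2 ratio of -0.14 (95% interval -0.65 to 0.35). XIAP and AIFM1 are on the X chromosome, and the part of the unequal Y-linked reads in their values was not tested.

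The death receptors pointed in different directions. FAS had 17 control and 25 sevoflurane reads (1.01 and 2.52 CPM, log2 ratio 1.20, 95% interval 0.37 to 2.30). This is the second of the 2 apoptosis genes past 2-fold in the higher direction, and it rests on 42 reads in all. TNFRSF21, which encodes death receptor DR6 and is expressed by neurons and oligodendrocyte lineage cells, had 2515 and 851 reads. Its level was 149.7 CPM in the control and 85.7 CPM after sevoflurane, or 57.3% of the control level (95% interval 52.9% to 61.9%, log2 ratio -0.80). TNFRSF1A, the broadly expressed TNF receptor, had 347 and 201 reads and was level between the libraries (log2 ratio -0.03, 95% interval -0.29 to 0.23).

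Behind the receptors, the adaptor FADD had 109 and 81 reads (log2 ratio 0.32, 95% interval -0.10 to 0.76). CFLAR, which blocks CASP8 at the receptor, had 446 and 242 reads and a log2 ratio of -0.12 (95% interval -0.35 to 0.11). The kinases RIPK1 and RIPK3 steer receptor signals toward survival or necroptosis. RIPK1 had 50 and 23 reads, within counting error (log2 ratio -0.34, 95% interval -1.14 to 0.38). RIPK3 had 18 control reads and 2 sevoflurane reads, so that its CPM was at 18.8% of the control level with a 95% interval of 2.12% to 78.5%. Of the 7 receptor and adaptor genes, 1 was higher, 2 were lower and 4 were within counting error.

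MDM2 and MDM4, the inhibitors of p53, were level. MDM2, which p53 itself induces and which is therefore often read as a sign of p53 activity, had 1243 and 739 reads, or 74.0 and 74.4 CPM, at 100.6% of the control level (95% interval 91.7% to 110.3%). MDM4 had 1503 and 877 reads, or 89.4 and 88.3 CPM, at 98.7% (90.7% to 107%). Both intervals left no room for a 1.5-fold difference between the libraries. BBC3 and FAS, which p53 also induces, were 2.31 and 2.49 times as high in CPM, FAS with only 17 and 25 reads. The part of p53 in any of these values was not tested.

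A list of 25 other p53 target genes went in both directions. Of its 22 tested genes, 5 were higher and 6 lower beyond counting error and 11 within it. Over all tested genes, 28.4% were higher and 28.1% lower by that rule. The list's median log2 ratio was 0.08, which turned to -0.16 with a filter of 1 read. At 2-fold, GDF15, a stress-induced cytokine, was higher (11 and 20 reads, log2 ratio 1.43), and so was BTG2, an antiproliferative gene that neuronal activity also induces (67 and 95 reads, log2 ratio 1.23). AEN, a nuclease (109 and 17 reads, log2 ratio -1.83), GADD45A, a DNA damage gene (124 and 34 reads, log2 ratio -1.08), and PERP, a membrane protein (32 and 7 reads, log2 ratio -1.27), were lower at 2-fold. Short of 2-fold, CDKN1A (987 and 334 reads, log2 ratio -0.80), CCNG1 (810 and 282 reads, -0.76) and TRIAP1 (87 and 31 reads, -0.70) were lower beyond counting error. SESN1 (561 and 399 reads, log2 ratio 0.27), TP53INP1 (298 and 218 reads, 0.31) and DDB2 (91 and 77 reads, 0.51) were higher. GDF15 (0.65 and 2.01 CPM) and PERP (1.90 and 0.70 CPM) each passed the filter only through the library where they were high.

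The nuclear end of the pathway showed 1 difference. PARP1, a DNA repair enzyme that executioner caspases cleave, had 2619 and 1155 reads (155.9 and 116.3 CPM) and was at 74.6% of the control level (95% interval 69.6% to 80.0%, log2 ratio -0.42). DFFB, the nuclease that cuts DNA between nucleosomes, and DFFA, its inhibitor, were within counting error, with log2 ratios of 0.07 (95% interval -0.30 to 0.44, 164 and 102 reads) and -0.12 (-0.42 to 0.18, 268 and 146 reads).

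The remaining 4 of the 45 genes were under 1 CPM in both libraries and give no ratio. BIK, a BH3-only gene, had 0 reads in both. PMAIP1, which encodes NOXA, had 0 control and 2 sevoflurane reads, BCL2A1, a prosurvival gene of blood cells, had 1 and 3, and CASP8, the initiator at the death receptors, had 1 and 0. The 3 reads taken as a floor correspond to 0.179 CPM (control) and 0.302 CPM (sevoflurane). A level below that was not detectable at this depth, and the annotation behind the count of CASP8 is not given in the sources used here.

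Other apoptosis genes, outside the 45, were described in the same way. Of 20 such genes, 17 were tested, 4 were higher and 3 lower beyond counting error, and their median log2 ratio was 0.06. Over all tested genes, 28.4% were higher and 28.1% lower. BIRC5, an IAP gene of dividing cells, was lower, with 29 control and 2 sevoflurane reads (11.7% of the control CPM, upper 95% limit of the log2 ratio -1.12). CASP4, an inflammatory caspase, had 6 and 11 reads (log2 ratio 1.31, 95% interval 0.07 to 3.35). CASP4 passed the filter through the sevoflurane library alone and BIRC5 through the control library alone, in each case the library where the gene was high. Of the ligands of the death receptors, FASLG (0 reads in both libraries), TNF (0 and 2) and LTA (1 and 0) were scarce. TNFSF10, which encodes TRAIL, and TNFSF12 were lower, with 201 and 80 reads (log2 ratio -0.56) and 376 and 183 reads (log2 ratio -0.28).

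Of 14 genes of necroptosis and pyroptosis, 11 were tested, and 5 were higher and 2 lower beyond counting error. The shares of all tested genes were 28.4% and 28.1%. These 11 genes had a median log2 ratio of 0.42. This median was 0.22 with the control library sampled down and -0.27 with a filter of 1 read, so the list has no settled direction. GSDMD, a pore-former that inflammatory caspases activate, had 16 and 29 reads (log2 ratio 1.48, 95% interval 0.69 to 2.60) and was under 1 CPM in the control. DFNA5, the earlier symbol of gasdermin E, had 226 and 61 reads (log2 ratio -1.11, 95% interval -1.56 to -0.72). The 2 gasdermins thus lay on opposite sides. Of 12 genes of the integrated stress response, 10 were tested, 3 were higher and 5 lower, again beside 28.4% and 28.1%. DDIT3, which encodes CHOP and can induce BBC3 and BCL2L11, had 92 and 115 reads (log2 ratio 1.06, 95% interval 0.67 to 1.49), and CEBPB, its dimer partner, had 86 and 115 reads (log2 ratio 1.16, 95% interval 0.76 to 1.60). ATF4, which lies upstream of DDIT3, was at 94.2% of its control level in CPM, within counting error. The third higher gene was PPP1R15A (362 and 390 reads, log2 ratio 0.86). The 5 lower genes were ASNS (1071 and 374 reads, log2 ratio -0.76), ATF5 (-0.60), CHAC1 (-0.55), HSPA5 (-0.30) and XBP1 (-0.27). The part of DDIT3 in the BBC3 and BCL2L11 values was not tested.

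In the JNK pathway, which leads to HRK and BCL2L11 in stressed neurons, 5 of 13 genes were higher, 5 lower and 3 within counting error, and none reached 2-fold. For this list and the clearance genes below, the shares of all tested genes were again 28.4% higher and 28.1% lower. The median log2 ratio of the JNK list was -0.03, with JUND highest (859 and 1006 reads, log2 ratio 0.98) and the kinase gene MAPK9 lowest (4434 and 1738 reads, log2 ratio -0.59). JUN, like JUND, was higher by at least 1.5-fold (1316 and 1199 reads, log2 ratio 0.62, 95% interval 0.51 to 0.74). MAPK9 was lower by at least 1.5-fold (95% interval -0.67 to -0.51). Transcript levels do not show whether JNK proteins were phosphorylated. Among 21 genes for the clearance of dying cells, 4 were higher, 7 lower and 10 within counting error, with a median of -0.11. P2RY6, a microglial receptor for nucleotides from damaged neurons, was the 1 gene at 2-fold, with 7 and 15 reads (log2 ratio 1.55, 95% interval 0.48 to 3.39), and it passed the filter through the sevoflurane library alone, at 0.42 and 1.51 CPM.

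**Figure D4:**
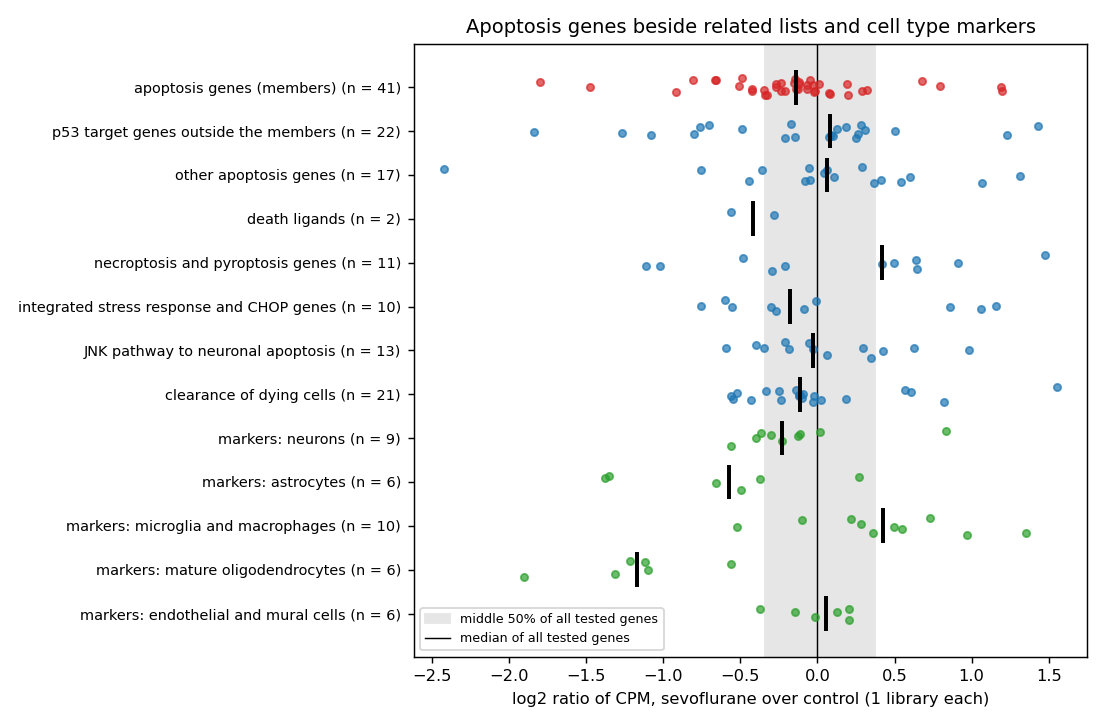
Log2 ratios of CPM, sevoflurane over control, for the tested genes of the lists drawn (points) with the list's median (black bar). The marker lists drawn are neurons, astrocytes, microglia and macrophages, mature oligodendrocytes, and endothelial and mural cells. Not drawn are red blood cells (median 1.59), other leukocytes (2.885), meninges and choroid plexus (0.60) and oligodendrocyte precursors (-0.40). Apoptosis genes are red, related lists blue and cell type markers green, and the grey band holds the middle 50% of all tested genes. The median of the 41 apoptosis genes is -0.14, that of the mature oligodendrocyte markers -1.17 and that of the microglia markers 0.43.

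Cell type markers differed between the same libraries, and their part in the values above was not tested. In bulk tissue, fewer cells of a type and less RNA per cell cannot be told apart. All 6 markers of mature oligodendrocytes were lower after sevoflurane, with a summed level of 4056 CPM (control) and 1994 CPM (sevoflurane), and the median log2 ratio of -1.17 was lower than the ratio of any apoptosis gene except BOK and RIPK3. Of the 6 astrocyte markers, 5 were lower and 1 was higher, with sums of 6083 and 4199 CPM. Of the 9 neuron markers, 7 were lower, 1 was higher and 1 was within counting error, with sums of 5495 and 4804 CPM.

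Of 10 microglia and macrophage markers, 6 were higher, 1 was lower and 3 were within counting error, and their sum was 240.1 CPM (control) and 269.7 CPM (sevoflurane). Markers of red blood cells were 24.8 and 80.8 CPM in sum, with 3 of 4 higher, and markers of other leukocytes 1.61 and 6.85 CPM, with S100A8 and S100A9 at 0 reads in the control and CD2 and NKG7 at 0 in both. Oligodendrocyte precursor markers were lower in 3 of 3 genes (376.3 and 283.4 CPM), endothelial and mural markers were mixed (1 higher and 2 lower of 6, 443.3 and 470.5 CPM), and of the 5 markers of meninges and choroid plexus 3 were higher (202.8 and 347.2 CPM). HBA1, ALAS2, S100A8, S100A9, CSF3R and TTR passed the filter through the sevoflurane library alone, where they were high. Their place among the higher markers follows in part from the filter.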

How the data were processed

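The authors deposited raw counts (whole reads per gene, not normalized), in 1 table with a column for each library, matched to the control and the sevoflurane group by the sample titles. The submitters' processing notes name HISAT2 2.0.4. The genome build, annotation, counting tool and strand setting are not given in the sources used here, so no coordinates are printed. Library totals were 16960880 and 9839105 reads.

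TMM factors came from edgeR 4.0.16 (R 4.3.3) over the 18050 of 33618 genes that reached 1 CPM in a library, and were 0.991 (control) and 1.01 (sevoflurane). Log2 ratios had a prior count of 2. Intervals were 95% Clopper-Pearson limits, and exact conditional limits for partner ratios (scipy 1.17.1). A gene was counted at 2-fold or 1.5-fold where its interval also excluded equal expression. Without replicates, the quasi-likelihood test of edgeR has no residual degrees of freedom, so p-values are left out. The procedure was tested on simulated data. As alternatives, scaling used library totals, upper quartiles or the size factors of DESeq2 1.42.0, the prior count was 0.5, the filter was 1 read or 5 CPM, the control library was sampled down, the interval was stricter, or the threshold was 1.5-fold.

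The 45 genes and all lists were chosen with earlier results of these data known. By rule, values are given for genes past 1.5-fold, the highest and lowest of each class, partner genes and genes under 1 CPM, and in related lists for genes past 2-fold, or the highest and lowest where none passed. ATF4, TNF, LTA and the other genes named beyond that rule, and the class sums, were added after values were seen. Some items that the lists first held are not reported here and were left out of the counts. Plots were drawn with matplotlib 3.10.9.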

Additional observations from a re-analysis of the deposited data

How the results depend on the processing

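No paired analysis was possible because there was 1 library a group, and for the same reason no replicate could be left out. Among the 41 tested apoptosis genes, 37 kept their interval above, below or across equal expression under each scaling, prior count, filter and depth alternative that could be run. FAS, RIPK1, RIPK3, CASP1 and CASP10 were not tested under the filter of 5 CPM. Of the genes within counting error, BCL2L2, XIAP, RIPK1, MDM2 and MDM4 changed sign in at least 1 alternative. With the control library sampled down, BAK1 (log2 ratio -0.42) and CASP2 (0.22) no longer excluded equality and CASP9 (0.30) did, and with a filter of 1 read HTRA2 (-0.29) did. BOK and BBC3 stayed past 2-fold in all 8 alternatives that keep that threshold. FAS and RIPK3 were not counted with a filter of 5 CPM, which they did not pass, or with the stricter interval, so that 1 apoptosis gene was higher and 1 lower in either case. At 1.5-fold, 4 were higher and 6 lower, and BCL2 left that count with the control sampled down and BMF with the stricter interval. FAS and RIPK3 left it as well, with the filter of 5 CPM and with the stricter interval. Over all genes, 1364 were higher and 988 lower at 2-fold, 606 and 474 with a filter of 5 CPM, and 2604 and 2141 at 1.5-fold. The median of the BH3-only genes was 0.31, and 0.66 with a filter of 1 read, which adds PMAIP1 with its 2 reads. Under the same filter the medians of the p53 target genes (-0.16) and of the necroptosis and pyroptosis genes (-0.27) changed sign, and that of the caspases did so with a filter of 5 CPM (-0.15 to 0.22). The other scalings shifted all genes by at most 0.027 on the log2 scale. Depth limits FAS, RIPK3, CASP1, CASP10 and RIPK1, each with at most 53 reads in a library, and GC content was not checked.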
